A study of Mus musculus with 6 samples.

Results

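The genes described here are 32 effectors of the interferon response outside the IFIT and OAS families and the interferon-induced guanylate-binding and immunity-related GTPases. They were chosen by gene name and function, not by a threshold on these values, but with earlier results of these data known. All 32 were found by symbol among the 52369 genes of the deposited table. The samples were 6 RNA sequencing libraries of tibialis anterior muscle from C57BL/6 mice labelled as aged 6 weeks, 3 labelled control and 3 labelled as overexpressing Linc-smad7, a long non-coding RNA (L7). Per the labels, every muscle in both groups had 50 µl of 10 µM cardiotoxin, a venom toxin that destroys muscle fibres, at 5 weeks of age. All then had 6.25 µg of plasmid, named only as pcDNA3.1, given in a glucose solution with an in vivo transfection reagent on days written as 1/2, 2 and 4, with harvest on day 7. It is not stated what the control plasmid carried, which cells took up the plasmid, or whether the libraries came from separate mice. If some did not, p-values measure in part technical spread between these libraries. Whole muscle was sequenced, so fewer cells of a type and less RNA per cell cannot be told apart.

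Interferons are secreted proteins that signal through JAK kinases and STAT factors and switch on a large set of genes that limit infection. The genes described here are products of that programme: ISG15 and the enzymes that attach or remove it, the MX proteins that block viral replication complexes, PARP enzymes that transfer ADP-ribose, TRIM ubiquitin ligases, the Schlafen (SLFN) proteins, and enzymes that act on double-stranded RNA or nucleotides. In regenerating muscle such genes are expressed by infiltrating leukocytes and by muscle and stromal cells.

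A shared regulatory sequence was looked for first, because type I interferon acts through the factor ISGF3, which binds the interferon-stimulated response element. Its core, GAAA followed by any 2 bases and GAAA again, was searched on both strands (it reads TTTC, 2 bases, TTTC on the other) in the 250 bases upstream of the RefSeq start sites on GRCm38.p6, the build also called mm10. Of the 25 genes with a promoter entry, 7 held the core (28%), against 936 of 27025 genes with an entry over the whole genome (3.46%). These were Isg15, Bst2, Rsad2, Trim30a, Slfn5, Slfn8 and Lgals9. Usp18, Mx1, Mx2, Parp9, Parp14, Rtp4 and Ifi27l2a had no entry. The 250 bases upstream of Isg15 (GRCm38.p6, chr4:156200819-156201068, minus strand, written 5′ to 3′) are shown whole because they hold 3 overlapping matches, which are in capitals.

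Isg15: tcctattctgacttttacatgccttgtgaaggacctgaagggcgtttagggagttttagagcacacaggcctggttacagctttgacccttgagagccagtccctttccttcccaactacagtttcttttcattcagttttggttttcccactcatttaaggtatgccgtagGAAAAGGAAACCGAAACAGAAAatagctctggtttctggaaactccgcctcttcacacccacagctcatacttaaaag

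Windows of 30 bases around the match (in capitals) are shown for 5 other genes, to set its spacing and orientation side by side. They are on the gene's own strand, 5′ to 3′, at chr8:71537577-71537606 (minus strand), chr12:26456553-26456582 (minus), chr7:104465210-104465239 (minus), chr11:83020839-83020868 (minus) and chr11:78984960-78984989 (minus) in the order given.

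Bst2: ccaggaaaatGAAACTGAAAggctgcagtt
Rsad2: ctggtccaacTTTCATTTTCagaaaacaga
Trim30a: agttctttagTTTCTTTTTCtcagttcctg
Slfn8: atttgagcagTTTCGTTTTCcccaaaagca
Lgals9: tgacatcagcTTTCTTTTTCtctagacact

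The match in Isg15 and Bst2 reads in the direction of the gene, and in the other 4 windows it reads on the opposite strand. The match in Slfn5, not shown, also reads in the direction of the gene and runs on into a stretch of A. In Bst2 a second match overlaps the one shown. In Slfn8 the same match lies upstream of 2 annotated start sites. A match is a description of these letters and not a measured binding site.

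The libraries held 19420012 to 24663153 reads in genes, and every gene described here had at least 524 reads in every library. One library, L7 replicate 3, differed from the rest: its correlations over genes with them were 0.92 to 0.951, and it had a median of ratios factor of 0.773 against 1.03 to 1.095. Its median over all 14788 genes tested lay -0.40 from the control mean on the log2(FPKM + 1) scale, and the other 2 L7 libraries lay at -0.02 and -0.04. Y-linked genes had 3185 to 4184 reads in L7 replicate 1 and in control replicates 1 and 3, and at most 2 reads in each remaining library. Each group therefore held muscle of more than 1 mouse, but whether every library came from its own mouse is not stated. The level of Linc-smad7 itself was not analysed here.

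All 32 genes had a lower mean in the L7 libraries than in the control libraries. In 28 of the 32, each L7 library lay below each control library, which was so for 13.7% of all genes tested. No member had each L7 library above each control library (5.49% of all genes). The exceptions to the 28 were Slfn1, Lgals9, Ifi27l2a and Lgals3bp. The median log2 difference of the 32 was -0.69 with a range from -0.94 to -0.23, beside a median of -0.15 over all genes. A negative log2 difference was found in 70.8% of all genes before and 50.3% after median of ratios scaling, and in all 32 members both times. After that scaling the member median was -0.51 against -0.002 for all genes, and the same 28 members were without overlap (8.82% of all genes). The L7 mean was between 52.6% (Parp14) and 86.7% (Lgals3bp) of the control mean.

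No single gene passed the test. In limma on log2(FPKM + 1), adjusted by Benjamini-Hochberg over 14788 genes, 0 of the 32 members had an adjusted p under 0.05, as had 0 of all genes (0.0%). The adjusted p was 0.58 for 31 members and 0.634 for Lgals3bp. At an unadjusted p under 0.05 limma had 27 of 32 members lower, against 4.25% of all genes. That count was 22 after median of ratios scaling and 18 with sex, taken from the Y-linked reads, as a covariate. It was 14 without control replicate 1 and 11 without control replicate 3. The share of all genes lower in those fits was not counted, so the fall cannot be read as a result about the members. The exact permutation test over libraries gave 0.1 for each of the 28 genes without overlap, the smallest two-sided p that 3 libraries against 3 allow. In the authors' deposited table, 11 of 32 members were lower at an unadjusted p under 0.05, against 1.23% of the same genes. By adjusted p under 0.05 the authors' deposited table called 0 of 32 (0.0609% of the same genes).

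L7 replicate 3 was the lowest library for all 32 genes on FPKM as deposited and for 19 of 32 after median of ratios scaling. Without it, L7 replicates 1 and 2 still lay below each control library in the same 28 genes, against 15.0% of all genes, and the member median was -0.46 (-0.03 for all genes). After median of ratios scaling of these 5 libraries 31 of 32 members had a negative log2 difference (51.1% of all genes), and the same 28 were without overlap (12.2%). On FPKM as deposited, the log2 difference was over 1.5 times as large with L7 replicate 3 as without it in 15 of 32 members. Adar, Ifi27l2a and Lgals3bp moved most by this ratio. The median of all genes moved too, from -0.15 with L7 replicate 3 to -0.03 without it. The share of all genes over the 1.5 limit was not counted, so the count of 15 members cannot be read as particular to them. Limma without it had 24 members lower at an unadjusted p under 0.05, against 3.97% of all genes. Taken singly, L7 replicate 1 lay below every control library in 28 members (25.5% of all genes), L7 replicate 2 in 31 (31.1%) and L7 replicate 3 in 32 (66.4%). Among the libraries with Y-linked reads, L7 replicate 1 lay below both control libraries in 30 members (33.9% of all genes). Among those without, both L7 libraries lay below control replicate 2 in all 32 (49.5% of all genes). After scaling these counts were 30 (30.0% of all genes) and 32 (33.4%). Control replicate 3 was the highest library in 29 members and control replicate 2 the lowest control library in 29, so the controls were spread in the same order for most of them.

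**Figure D1:**
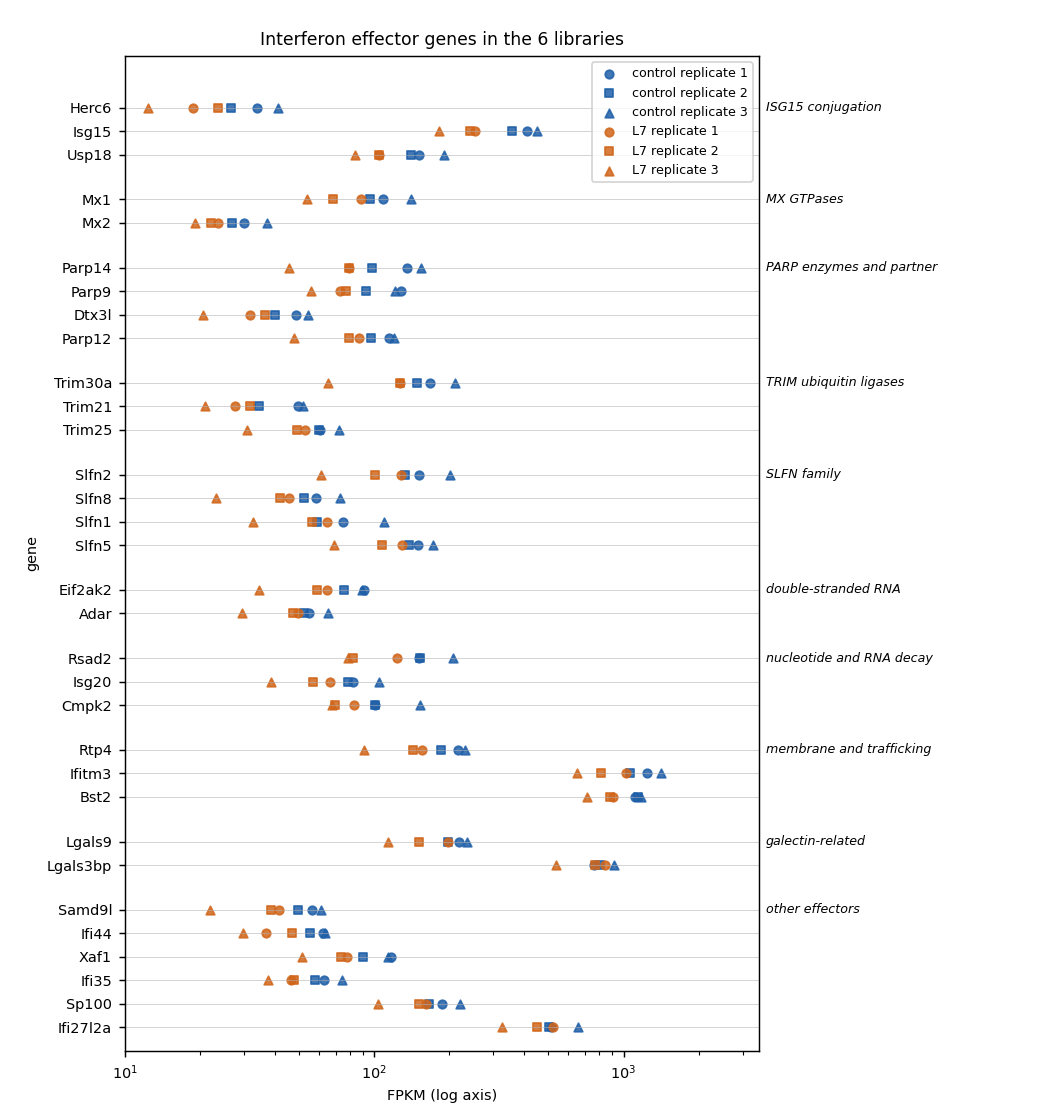
FPKM (log axis) of each of the 32 genes in the 3 control libraries (blue) and the 3 L7 libraries (orange), with genes grouped by function and the symbol giving the replicate. L7 replicate 3 is the lowest point in every row, and blue and orange overlap only in Slfn1, Lgals9, Lgals3bp and Ifi27l2a.

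The ISG15 system was among the groups with the largest differences. ISG15 is a ubiquitin-like protein that is attached to newly made proteins and is also secreted, HERC6 is the ligase that attaches it in the mouse, and USP18 removes it and also holds back signalling at the type I interferon receptor. Isg15 (ENSMUSG00000035692, chr4:156199424-156200818, minus strand) was at 408, 356 and 449.7 FPKM in the control libraries and 255, 242 and 182 FPKM in the L7 libraries. Its groups did not overlap, with a mean of 404 ± 47.2 FPKM (SD, n = 3) over the controls, compared with 226 ± 38.6 FPKM (SD, n = 3) under L7 and a limma log2 difference of -0.84 ± 0.19 (SE) with an adjusted p of 0.58. Usp18 (chr6:121245906-121270917, plus strand) was at 152, 140.4 and 189.7 FPKM in the control libraries and 104, 105 and 83.7 FPKM in the L7 libraries. Its lowest control library was control replicate 2 and its lowest L7 library L7 replicate 3, the order of most members. Herc6 (chr6:57581000-57664632, plus strand), one of the least abundant members, was at 34, 26.6 and 41.3 FPKM in the control libraries and 18.7, 23.6 and 12.4 FPKM in the L7 libraries. The log2 difference was -0.71 ± 0.18 (SE) for Usp18 and -0.88 ± 0.26 (SE) for Herc6, and the FPKM of Isg15 was 2.18 to 2.7 times that of Usp18 in every library. The 3 ISG15 enzymes outside the 32 did not share 1 direction. The conjugating enzyme Ube2l6 was at 182, 149 and 200.5 FPKM in the control libraries and 123, 122 and 86.7 FPKM in the L7 libraries, also without overlap. The activating enzyme Uba7 was at 113, 85 and 121 FPKM in the control libraries and 78.4, 93.4 and 61.3 FPKM in the L7 libraries, where L7 replicate 2 lay above control replicate 2. Ube2e1, another conjugating enzyme, was at 12.4, 12 and 12.5 FPKM in the control libraries and 12.3, 11.9 and 15.4 FPKM in the L7 libraries, with overlapping groups and a log2 difference of 0.08 ± 0.15 (SE).

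The MX proteins are dynamin-like GTPases that trap viral nucleocapsids. Most laboratory mouse strains, C57BL/6 among them, carry Mx1 and Mx2 alleles that make no functional protein, so the RNA level does not stand for functional protein. The genes lie 72.4 kb apart on chromosome 16, Mx1 on the minus strand (chr16:97447035-97462907) and Mx2 on the plus strand (chr16:97535308-97560900). Mx1 was at 109, 96.2 and 140.4 FPKM in the control libraries and 88.5, 68.1 and 53.8 FPKM in the L7 libraries. Mx2 was lower per length, at 30.0, 27 and 37.3 FPKM in the control libraries and 23.7, 22.1 and 19.1 FPKM in the L7 libraries. Neither gene's groups overlapped, and the limma log2 differences were -0.72 ± 0.23 (SE) for Mx1 and -0.52 ± 0.17 (SE) for Mx2. The ratio of Mx1 to Mx2 in FPKM was 3.56 to 3.76 in the control libraries, 3.74 in L7 replicate 1 and 3.09 and 2.82 in L7 replicates 2 and 3.

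Parp14 had the most negative log2 difference of the 32. Its product is a large mono-ADP-ribosyltransferase with a known part in STAT6 and interferon signalling, PARP9 forms a complex with the ubiquitin ligase DTX3L, and PARP12 is a zinc-finger member that binds RNA. Parp14 (chr16:35832874-35871544, minus strand) was at 136, 97.8 and 154 FPKM in the control libraries and 79.3, 79.4 and 45.5 FPKM in the L7 libraries. The 3 L7 libraries lay below control replicate 2, the lowest control, and its log2 difference was -0.94 ± 0.27 (SE) with an adjusted p of 0.58 in limma. Parp9 was at 128, 92.4 and 122 FPKM in the control libraries and 72.9, 77.1 and 55.7 FPKM in the L7 libraries. Its partner Dtx3l was at 48.6, 40.1 and 54.3 FPKM in the control libraries and 31.8, 36.4 and 20.6 FPKM in the L7 libraries. The genes are annotated head to head, Dtx3l at chr16:35926511-35939151 on the minus strand and Parp9 at chr16:35938470-35972605 on the plus strand, and their spans overlap at the shared 5 prime ends. No label states the strand setting of the counting, so reads in the overlap could be shared between them. Parp12 was at 115, 96.9 and 121 FPKM in the control libraries and 86.7, 79.6 and 47.8 FPKM in the L7 libraries, again without overlap. Of the family members outside the 32, Parp11 had a log2 difference of -0.83 ± 0.23 (SE) and Parp10 of -0.68 ± 0.20 (SE), both without overlap. Parp1 and Parp3, at 0.19 ± 0.16 (SE) and -0.13 ± 0.15 (SE), had overlapping groups, and the L7 mean of Parp1 was the higher one.

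TRIM proteins are RING-finger ubiquitin ligases. TRIM21 is a cytosolic antibody receptor, TRIM25 ubiquitinates the RNA sensor RIG-I, and TRIM30A is a mouse protein that restrains inflammatory signalling. Trim30a was at 167, 148 and 211 FPKM in the control libraries and 127, 127 and 65.2 FPKM in the L7 libraries. L7 replicates 1 and 2 were nearly equal and L7 replicate 3 was the lowest. It has close copies beside it on chromosome 7, and its reads may be divided between them. Trim21 was at 49.3, 34.4 and 52 FPKM in the control libraries and 27.7, 31.7 and 20.9 FPKM in the L7 libraries. Trim25 was at 60.8, 60.1 and 72.6 FPKM in the control libraries and 52.7, 49.1 and 31 FPKM in the L7 libraries. In all 3 genes the groups did not overlap, with log2 differences of -0.76 ± 0.29 (SE) for Trim30a, -0.74 ± 0.22 (SE) for Trim21 and -0.56 ± 0.22 (SE) for Trim25. Without L7 replicate 3 the L7 mean was 72.6%, 65.6% and 79% of the control mean in the same order.

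The Schlafen genes lie together on chromosome 11, Slfn5 at chr11:82951349-82964840, Slfn8 at chr11:83002158-83020810, Slfn2 at chr11:83065112-83070678 and Slfn1 at chr11:83116849-83122670. They are known from lymphocyte and macrophage biology, where Slfn2 maintains T cell quiescence and Slfn1 slows T cell growth. Slfn2 was at 151, 133 and 202 FPKM in the control libraries and 128, 100.4 and 61.4 FPKM in the L7 libraries. Slfn5 was at 150.1, 138 and 172 FPKM in the control libraries and 129, 108 and 68.8 FPKM in the L7 libraries. In both genes L7 replicate 1 lay just below control replicate 2, and L7 replicate 3 lay far below the others. Slfn8 was at 58.3, 52.3 and 72.7 FPKM in the control libraries and 45.6, 41.8 and 23.2 FPKM in the L7 libraries. Slfn1 was at 75.1, 59.1 and 109 FPKM in the control libraries and 64.8, 56.4 and 32.6 FPKM in the L7 libraries, and its groups overlapped because L7 replicate 1 lay above control replicate 2. The log2 differences ran from -0.78 ± 0.29 (SE) for Slfn2 to -0.63 ± 0.24 (SE) for Slfn5, and Slfn1 had an adjusted p of 0.58 in limma. Slfn8 has close copies in the cluster, so its reads may be divided between them.

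The members that act on nucleotides and RNA included a pair of neighbouring genes. RSAD2 (viperin) makes a chain-terminating nucleotide from CTP, and CMPK2 is a mitochondrial nucleotide kinase that supplies it. Rsad2 (chr12:26442746-26456452, minus strand) was at 151, 152 and 208 FPKM in the control libraries and 124, 82.5 and 78.8 FPKM in the L7 libraries. Cmpk2, 12.8 kb away on the plus strand (chr12:26469204-26479837), was at 101, 101 and 153 FPKM in the control libraries and 83.2, 69.4 and 67.6 FPKM in the L7 libraries. L7 replicates 2 and 3 were close to each other in both genes. The FPKM ratio of Rsad2 to Cmpk2 was 1.36 to 1.51 in the control libraries, 1.49 in L7 replicate 1 and 1.19 and 1.17 in L7 replicates 2 and 3. Log2 differences were -0.85 ± 0.23 (SE) for Rsad2 and -0.66 ± 0.20 (SE) for Cmpk2. Isg20, an exonuclease that degrades single-stranded RNA, was at 82.2, 78.4 and 105 FPKM in the control libraries and 66.4, 56.8 and 38.5 FPKM in the L7 libraries. Among the genes for double-stranded RNA, Eif2ak2, the kinase PKR that stops translation, was at 91.3, 75.9 and 89.7 FPKM in the control libraries and 64.5, 59 and 34.5 FPKM in the L7 libraries. Adar, the enzyme that edits adenosine to inosine and keeps the cell's own RNA from setting off these sensors, was at 54.9, 52.1 and 65.4 FPKM in the control libraries and 49.6, 47.3 and 29.4 FPKM in the L7 libraries. Both were without overlap, but the gap was narrow for Adar, whose log2 difference was -0.47 ± 0.22 (SE) with an adjusted p of 0.58 in limma and -0.23 without L7 replicate 3.

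The most abundant members per length, Ifitm3 and Bst2, encode membrane proteins. Ifitm3, which blocks fusion of viruses in endosomes, was at 1242, 1063 and 1414 FPKM in the control libraries and 1022, 809 and 649 FPKM in the L7 libraries. Bst2 (tetherin), which holds budding virus at the cell surface, was at 1114, 1145 and 1178 FPKM in the control libraries and 911, 884 and 713 FPKM in the L7 libraries. The control libraries were close together for Bst2, with a mean of 1145 ± 32.1 FPKM (SD, n = 3) over the controls, compared with 836 ± 108 FPKM (SD, n = 3) under L7, and the log2 difference was -0.46 ± 0.19 (SE). Rtp4, a chaperone of G protein-coupled receptors that is strongly induced by interferon, was at 218, 185 and 231 FPKM in the control libraries and 156, 143 and 90.8 FPKM in the L7 libraries, and its log2 difference was -0.73 ± 0.23 (SE). All 3 were without overlap.

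Lgals3bp and Ifi27l2a had the smallest differences, and the galectin-related genes had overlapping groups. Lgals3bp, a secreted glycoprotein that binds galectin 3, was at 759.6, 802 and 916 FPKM in the control libraries and 841, 772 and 535 FPKM in the L7 libraries. L7 replicate 1 lay above control replicates 1 and 2, and the log2 difference was -0.23 ± 0.23 (SE) with an adjusted p of 0.634 in limma. Without L7 replicate 3 its L7 mean was 97.7% of the control mean. Lgals9, the galectin that binds TIM-3 on T cells, was at 218, 197 and 236 FPKM in the control libraries and 198, 151 and 114 FPKM in the L7 libraries, with L7 replicate 1 just above control replicate 2. Ifi27l2a, a small hydrophobic protein, was at 512, 504 and 659 FPKM in the control libraries and 522, 449 and 327 FPKM in the L7 libraries, with L7 replicate 1 above control replicates 1 and 2. Its log2 difference was -0.38 ± 0.23 (SE) with an adjusted p of 0.58 in limma.

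The remaining members lay between these extremes. Samd9l, which restrains translation and growth in blood cells, was at 56.5, 49.7 and 61.3 FPKM in the control libraries and 41.7, 38.4 and 21.9 FPKM in the L7 libraries. Xaf1, a pro-apoptotic partner of XIAP, was at 116, 89.9 and 114 FPKM in the control libraries and 78, 73.9 and 51.3 FPKM in the L7 libraries. Ifi44 was at 62.1, 55.2 and 63.3 FPKM in the control libraries and 36.8, 46.7 and 29.9 FPKM in the L7 libraries. These 3 had groups that did not overlap and log2 differences of -0.74 ± 0.25 (SE) for Samd9l, -0.66 ± 0.20 (SE) for Xaf1 and -0.68 ± 0.19 (SE) for Ifi44. Ifi35 was at 62.8, 58 and 74.4 FPKM in the control libraries and 46.2, 47.5 and 37.4 FPKM in the L7 libraries. Sp100, a component of nuclear PML bodies, was at 187, 166 and 222 FPKM in the control libraries and 162, 151 and 104 FPKM in the L7 libraries, where L7 replicate 1 lay just below control replicate 2. Its log2 difference was -0.48 ± 0.21 (SE) and that of Ifi35 -0.56 ± 0.16 (SE).

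Set side by side without L7 replicate 3 and after median of ratios scaling, the functions were ordered by their median log2 difference as follows. The ISG15 genes were at -0.61, Rsad2, Cmpk2 and Isg20 at -0.57, the PARP genes and Dtx3l at -0.49, the MX genes at -0.46, the other effectors at -0.43, the membrane genes at -0.41, the TRIM genes at -0.41, the SLFN genes at -0.39, the double-stranded RNA genes at -0.32 and the galectin-related genes at -0.15. With all 6 libraries and the same scaling the ISG15 genes were at -0.67, the PARP genes at -0.54, the SLFN genes at -0.54, the TRIM genes at -0.56 and the MX genes at -0.44. The ISG15 genes came first both times. The SLFN and TRIM genes moved most with L7 replicate 3: the SLFN median from the control mean was -0.27, -0.47 and -0.85 in L7 replicates 1, 2 and 3. The ISG15 median was -0.63, -0.55 and -0.68 in the same libraries and the MX median -0.34, -0.56 and -0.43. Standard errors of single genes in the fit without it were 0.11 to 0.25, as wide as or wider than every gap between neighbouring functions but the last, and the order between functions was not tested.

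**Figure D2:**
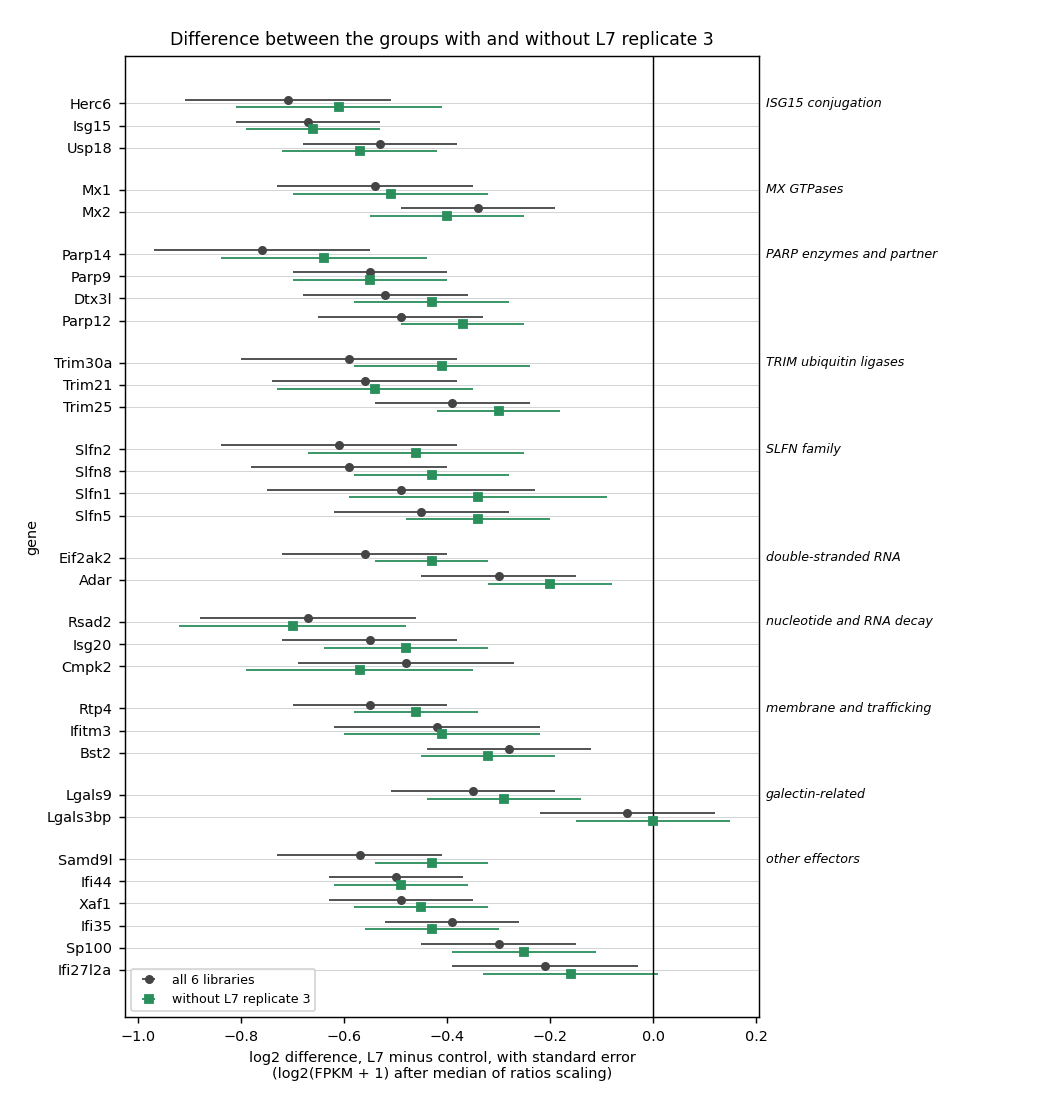
Log2 difference, L7 minus control, of each of the 32 genes with its standard error after median of ratios scaling, from all 6 libraries (dark circles) and without L7 replicate 3 (green squares). All values lie below 0 except Lgals3bp without L7 replicate 3, at 0.00, and Parp14, Herc6, Rsad2 and Isg15 are the 4 genes farthest from 0 both ways.

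**Figure D3:**
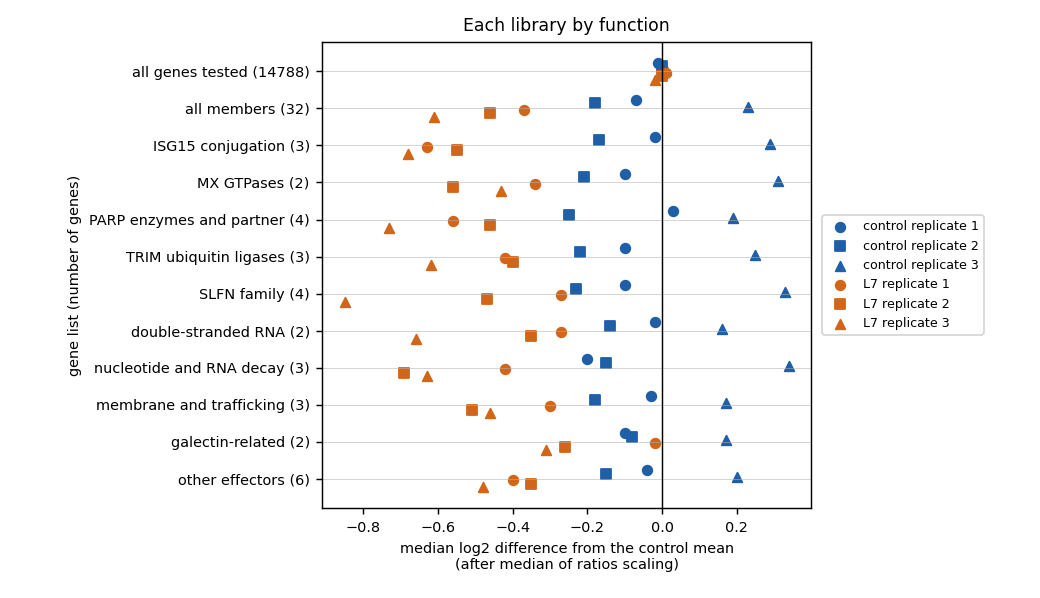
Median log2 difference of each library from the control mean, after median of ratios scaling, for all 14788 genes tested, for the 32 members and for each functional group, with the number of genes in brackets. All genes lie near 0 in every library, the 3 L7 libraries lie at -0.37, -0.46 and -0.61 for the 32 members, and the SLFN genes have the widest gap between L7 replicate 3 and the other L7 libraries.

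The members varied together across libraries. After median of ratios scaling, Pearson's r over the 6 libraries, given as a description since the libraries carry the group difference and their depth in common, had a median of 0.88 over the 496 pairs of members and exceeded 0.5 in 484. Lgals3bp had the lowest mean r with the others, at 0.55, and Isg20 the highest, at 0.91. Pearson's r was not computed over pairs of all genes, so these values cannot be read as particular to the members.

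Genes upstream of these effectors and beside them were counted over 67 further genes of the pathway, of which 56 were abundant enough to test. Of these 56, 0 passed limma after adjustment over all genes, 27 had an unadjusted p under 0.05 with a lower L7 mean (4.25% of all genes) and 0 with a higher one, and 30 had each L7 library below each control library (13.7% of all genes). Their median log2 difference was -0.55, and -0.29 without L7 replicate 3 after scaling. Among the ligands, Ifng, the T and NK cell interferon, was the only one tested and was at 4.77, 2.53 and 5.73 FPKM in the control libraries and 0.796, 2.13 and 1.55 FPKM in the L7 libraries. It had no overlap between groups and a limma log2 difference of -1.09 ± 0.30 (SE) with an adjusted p of 0.58. Its values rest on few reads, 79, 39 and 112 in the control libraries and 14, 35 and 26 in the L7 libraries. Type I ligands were near the limit of detection: Ifnb1 had 19, 10 and 11 reads in control and 7, 8 and 2 reads in L7 libraries, and Ifna1, Ifna2 and Ifne had none. Of 9 transcription factors of the pathway 4 had no overlap (13.7% of all genes), and Irf2, Irf3, Irf5, Irf7 and Irf8 overlapped. Their median was -0.56, and -0.29 without L7 replicate 3 after scaling. Irf1, a factor induced by interferon gamma and among the 4, was at 312, 175 and 328 FPKM in the control libraries and 114, 163 and 74.6 FPKM in the L7 libraries. The 8 tested receptors and kinases had a median of -0.30, which was near 0 without L7 replicate 3 after scaling (-0.004 for all genes there), and only Jak2 (-0.69 ± 0.22 (SE)) had groups without overlap, while Ifnar2 was at -0.40 ± 0.27 (SE) with overlap.

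The feedback inhibitor Socs1, a target of both interferon types that blocks JAK kinases, was at 86.5, 53.7 and 128 FPKM in the control libraries and 27.7, 50.3 and 34.9 FPKM in the L7 libraries. The phosphatase gene Ptpn2 was at 22, 19.5 and 21.9 FPKM in the control libraries and 16.8, 17.6 and 11.2 FPKM in the L7 libraries, also without overlap. The other feedback genes, Socs3, Pias1 and Ptpn6, had overlapping groups, and the median of the 5 was -0.48, and -0.07 without L7 replicate 3 after scaling. In the IFIT and OAS families 10 of 12 genes had each L7 library below each control library (13.7% of all genes), and their median was -0.63 (-0.15 for all genes) and -0.48 without L7 replicate 3 after scaling. Ifit1 was at 108, 101 and 123 FPKM in the control libraries and 72, 67.7 and 55.4 FPKM in the L7 libraries and Oas1b at 35.5, 31.7 and 35.7 FPKM in the control libraries and 23.6, 24 and 20.5 FPKM in the L7 libraries. The 18 other PARP, TRIM and SLFN genes were at -0.51 in the median, which scaling and leaving out L7 replicate 3 brought to -0.32. Of them, 11 were without overlap (13.7% of all genes).

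Markers of the cells that could hold these transcripts were summed in each library. Muscle fibre markers were abundant in every library. Of the adult fibre genes 10 of 10 had higher L7 means (70.8% of all genes had a negative log2 difference), and 3 had no overlap (5.49% of all genes). Their sums were 21412 to 29921 FPKM in control and 32159 to 95414 FPKM in L7 libraries. The highest sum was that of L7 replicate 3, at 361% of the control mean, against 122% and 131% in L7 replicates 1 and 2. The adult fibre median was 0.93, and 0.36 without L7 replicate 3 after scaling. Regenerating fibre markers summed to 1224 to 1875 FPKM in control and 981 to 1973 FPKM in L7 libraries. Of these markers, 5 of 6 had a negative log2 difference (70.8% of all genes). Their median log2 difference was -0.09, but 0.28 without L7 replicate 3 after scaling. The regenerating fibre sum was 102% of control with that library and 122% without it. Macrophage and monocyte markers overlapped between groups, at 2176 to 3418 FPKM in control and 1269 to 3379.7 FPKM in L7 libraries, with 9 of 11 having a negative log2 difference (70.8% of all genes) and 0 of 11 without overlap (13.7% of all genes). Their sum was 89.5% of control with L7 replicate 3 and 111% without it, but 57.8% of it was Lyz2. Leaving out Lyz2, a choice made after the values were seen, it was 74.3% and 90.8%. The 32 members, summed, were at 81.0% and 72.3% of the control mean in L7 replicates 1 and 2. Lyz2 was at 2103 and 1614 FPKM in those libraries and 1218 to 1744 FPKM in control. Ly6c2, the next in abundance, was at 251 and 242 FPKM in them and 242 to 592 FPKM in control. Cd68, which followed, was at 381 and 224 FPKM in the same L7 libraries and 246.5 to 314 FPKM in control. Fcgr1, after it, was at 210 and 146 FPKM there and 178 to 301 FPKM in control, so single markers of this list differed in direction. Neutrophil markers were at 188 to 305 FPKM in control and 54.7 to 336 FPKM in L7 libraries.

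Markers of T and NK cells summed to 101 to 225 FPKM in control and 80.5 to 135 FPKM in L7 libraries, with 8 of 11 having a negative log2 difference and 2 without overlap, shares near the 70.8% and 13.7% of all genes. Gzma, a granzyme of cytotoxic cells, was at 61.0, 32.6 and 96.9 FPKM in control and 29.2, 25.8 and 18.2 FPKM in L7 libraries. Cd4, Cd8a and Cd8b1 had overlapping groups, with Cd4 at 13.0, 16.9 and 16.2 FPKM in control and 14.7, 27.0 and 15.9 FPKM in L7 libraries. Dendritic cell markers summed to 228 to 251 FPKM in control and 232 to 756 FPKM in L7 libraries, but most of this was Cox6a2, which muscle fibres also express, and the plasmacytoid marker Siglech was at 0.616 to 1.80 FPKM. Fibro-adipogenic progenitor markers summed to 1032 to 1417 FPKM in control and 766 to 895 FPKM in L7 libraries. Most of that sum was Ly6a, itself a gene that interferon induces, while Dpt, Cd34, Pdgfra and Pi16 had overlapping groups. Endothelial markers were at 167 to 205 FPKM and 181 to 188 FPKM, and B cell markers at 3.19 to 6.48 FPKM and 3.18 to 5.11 FPKM. No marker was at 0 in every library. The part of these cell types in the difference of the 32 genes was not tested.

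**Figure D4:**
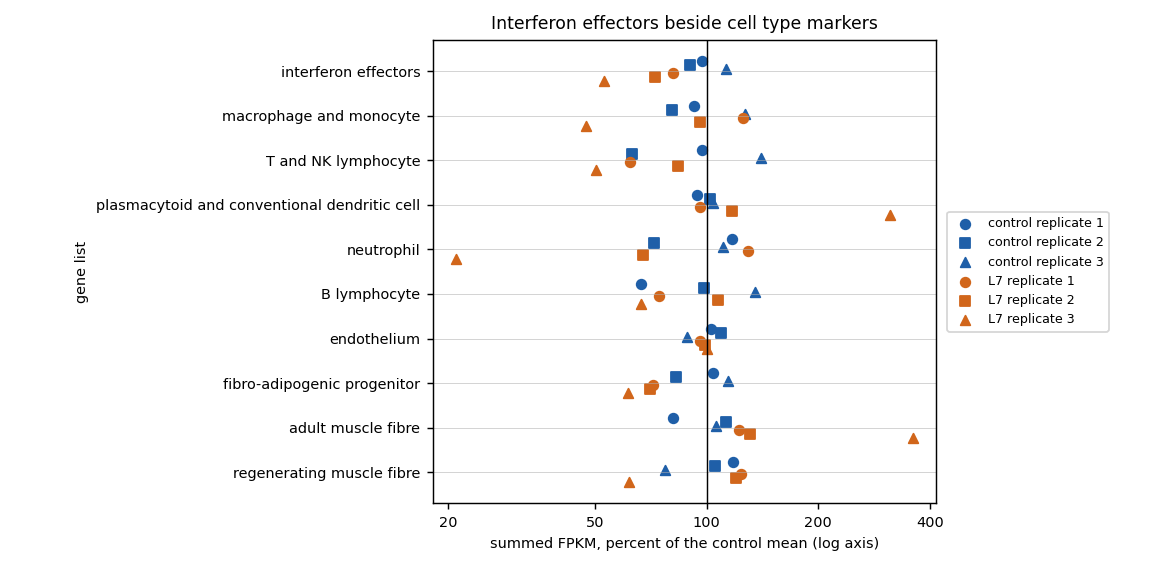
Summed FPKM of the 32 interferon effectors and of 9 marker lists in each library, as a percent of the control mean (log axis). The effectors lie at 81.0%, 72.3% and 52.8% in the L7 libraries, and the macrophage and monocyte markers at 125%, 95.9% and 47.1%.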

How the data were processed

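The authors deposited 1 FPKM value (reads scaled to gene length and library size) for every gene in every library. Among the submitters' processing notes are mm10, DESeq 1.12.0, HISAT2 2.0.4, TopHat2 2.0.12 and Bowtie2 2.2.3, with no roles stated. The counter, strand setting and annotation are not given here. The authors' deposited comparison holds, per the file headers, a mean signal per group (reads over size factors), a log2 fold change and p-values. FPKM ratios and these means gave back the reads per gene. All 124158 values under 1000 reads came out within 0.05 of a whole number, and these reads give the depth quoted.

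Identifiers were matched to symbols and coordinates of GENCODE M21 (mm10). Promoters came from RefSeq tables on GRCm38.p6. Group differences on log2(FPKM + 1) were tested two-sided in limma 3.58.1 under R 4.3.3, with its trended prior variance and no covariate. The 14788 genes whose mean FPKM reached 1 were tested. Adjusted p-values are Benjamini-Hochberg values over those genes, called at 0.05. The log2(FPKM + 1) scale understates changes of low genes. The script was tested on simulated data. Median of ratios scaling divides each library by the median of its ratios to the geometric mean. Alternatives were other pseudocounts, filters, scalings and weights, a replicate block, sex, left-out libraries and, added after seeing the data, voom on the recovered reads. All 32 members are named. In each further pathway list the 2 tested genes of smallest unadjusted p are named, except that a gene, and a further motif that was searched, are not reported here. The other genes named were chosen after their values were seen. The members and lists were chosen with earlier results of these data known. Tables and figures used Python 3.11.15, pandas 2.3.3 and matplotlib 3.10.9.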

Additional observations from a re-analysis of the deposited data

How the results depend on the processing

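Under 16 alternatives 511 of 512 member values kept a negative log2 difference and an adjusted p above 0.05. The exception was Lgals3bp without L7 replicate 3 after median of ratios scaling, at a log2 difference of 0.00. The number of members passing limma was 0 throughout, and the smallest adjusted p of any member was 0.166 (Isg15, voom with library weights on recovered reads). Members lower at an unadjusted p under 0.05 in limma numbered 27 with all libraries and FPKM as deposited (4.25% of all genes). They numbered 22 after median of ratios scaling, 18 with sex as a covariate and 11 to 29 with 1 library left out. The share of all genes was 3.97% without L7 replicate 3. It was not counted after scaling, with the sex covariate or with another library left out. The median log2 difference was -0.45 with array weights, -0.58 with sex as a covariate and -0.80 to -0.46 with 1 library left out. Members without overlap numbered 28 after median of ratios scaling (8.82% of all genes), 29 after quantile normalization and 28 to 31 with 1 library left out. Without L7 replicate 3 the share of all genes without overlap was 15.0%. It was not counted after quantile normalization or with another library left out. The estimation of library weights stopped before its convergence tolerance in a weighted fit. With the replicate block the median was -0.69, 0 members passed and 19 were lower at an unadjusted p under 0.05 (share of all genes not counted). The block is only a shared number in the labels. Deviations of libraries with the same number correlated at 0.322, -0.065 and 0.087. These few values cannot settle whether the numbers mark pairs. With 3 libraries a group, 1 of them apart, the precision of single genes is limited by the spread between libraries and not by depth.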
